A study of Homo sapiens with 12 samples.

Results

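The human HOX genes are 39 homeobox transcription factor genes in 4 clusters, and each cluster was defined here by a fixed window on the genome build hg19. The HOXA window, chr7:27130000-27260000, spans 130 kb and holds 11 genes. The HOXB window, chr17:46600000-46815000, spans 215 kb and holds 10. The HOXC window, chr12:54330000-54455000, spans 125 kb and holds 9, as does the 115 kb HOXD window, chr2:176945000-177060000. Every interval that overlapped a window in any deposited list was taken, with the 200 kb on each side of a window as its flanks, so that 585 kb of windows stood beside 1600 kb of flanks. Within the windows lay 5 of the 14377 reproducible H3K9ac regions of untreated cells, 13 of the 21098 of treated cells, and 0 H3K9me2 islands.

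The study used MDA-MB-231, a human triple-negative breast cancer line. Both groups were the same line, and the untreated group was the control. The treated group received the nitric oxide donor DETA/NO at 500 µM for 24 h after an overnight serum starvation. Chromatin was immunoprecipitated for acetylation or dimethylation of lysine 9 of histone H3. Each mark had 2 untreated and 2 treated biological replicates. The remaining 4 of the 12 samples were inputs and were not analysed here.

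HOX proteins bind DNA through the homeodomain and set positional identity along the body axis, and the order of the genes on the chromosome follows the order of the body regions in which they act. In adult tissues a cell keeps a restricted set of them active, and in many cell types the silent ones are held by polycomb complexes, which mark chromatin by trimethylation of lysine 27 of histone H3. H3K9ac marks active promoters and enhancers, whereas H3K9me2 covers broad silent domains and can be removed by iron-dependent demethylases that nitric oxide can inhibit.

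Gene positions on hg19 were not used here, so loci are given by coordinates and no peak was assigned to a gene. RefSeq on GRCh38.p14 gives the order of the members by the rising start of each gene entry. The HOXA cluster lies between SKAP2 and EVX1, with HOXA13, a gene of the distal limb and genital tract, as its last member. In the HOXB cluster the order runs from HOXB1, which patterns the hindbrain, to HOXB9 and then HOXB13, known from the prostate, between SKAP1 and TTLL6. In the HOXC cluster it runs from HOXC13, a gene of hair and nail, down to HOXC8, between CALCOCO1 and SMUG1. HOXC4, HOXC5 and HOXC6 come after HOXC8. They were sorted by entry start alone, so their order among themselves along the cluster is not given here. In the HOXD cluster it runs from HOXD13, which patterns the digits, down to HOXD1, between EVX2 and MTX2.

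RefSeq promoters could be matched by symbol for 20 of the 39 HOX genes, as 26 distinct stretches of the 250 bases before a start. As examples, the entry with most CpG dinucleotides is printed for each cluster, 5′ to 3′ on the strand of the gene, with CpG in capitals. HOXA13 has 40 CpG (GRCh38.p14, chr7:27200092-27200341, minus strand), HOXB1 has 7 (chr17:48531012-48531261, minus strand), HOXC4 has 14 in a stretch that HOXC5 shares (chr12:54016638-54016887, plus strand), and HOXD1 has 31 (chr2:176188418-176188667, plus strand). HOXB1 and HOXC4 were the single entries of their clusters. HOXA had 16 entries, with 0 to 40 CpG, and HOXD had 8, with 4 to 31. The printed stretches are thus no comparison of the clusters.
HOXA13: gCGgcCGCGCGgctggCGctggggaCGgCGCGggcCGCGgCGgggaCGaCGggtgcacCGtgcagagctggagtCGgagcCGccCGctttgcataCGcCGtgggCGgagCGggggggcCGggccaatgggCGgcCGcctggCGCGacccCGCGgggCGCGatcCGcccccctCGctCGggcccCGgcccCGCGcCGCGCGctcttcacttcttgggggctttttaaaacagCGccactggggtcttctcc
HOXB1: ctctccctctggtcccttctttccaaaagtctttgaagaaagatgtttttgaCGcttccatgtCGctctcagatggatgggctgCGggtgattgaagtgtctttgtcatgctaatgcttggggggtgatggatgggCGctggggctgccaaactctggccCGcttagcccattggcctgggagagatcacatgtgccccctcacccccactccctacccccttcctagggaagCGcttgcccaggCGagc
HOXC4: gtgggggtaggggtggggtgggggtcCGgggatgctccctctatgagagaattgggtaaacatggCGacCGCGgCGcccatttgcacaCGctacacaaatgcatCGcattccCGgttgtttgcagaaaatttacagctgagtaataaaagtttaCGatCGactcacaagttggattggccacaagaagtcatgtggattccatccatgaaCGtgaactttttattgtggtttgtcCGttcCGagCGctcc
HOXD1: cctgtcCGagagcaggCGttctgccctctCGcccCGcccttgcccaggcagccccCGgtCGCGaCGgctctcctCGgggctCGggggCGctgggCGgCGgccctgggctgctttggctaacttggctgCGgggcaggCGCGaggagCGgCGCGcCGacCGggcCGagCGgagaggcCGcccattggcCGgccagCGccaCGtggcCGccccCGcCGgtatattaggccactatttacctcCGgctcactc
The HOXA13 and HOXD1 stretches carry CpG along most of their length, while the HOXB1 stretch has long runs without any. By a GC content above 50% and a ratio of observed to expected CpG above 0.6, 17 of the 26 HOX promoters were like CpG islands, 65.4%, against 44.8% of all 34788 promoters. The motif TATAAA, searched on both strands, was in 5 of 26, 19.2%, against 10.8% of all. These pooled shares weigh HOXA most, as its 16 entries came from 9 genes. Among them 9 were island-like and 4 had TATAAA. Of the 8 HOXD entries 7 were island-like and 1 had TATAAA. The HOXC entry was island-like and the HOXB entry was not. These promoters are on another build than the peaks, so none was matched to a peak.

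The clusters also encode microRNAs, 3 of which are printed with bases 2 to 8, the seed, in capitals, because 1 seed recurs across clusters. On GRCh38.p14, miR-196b-5p lies in HOXA at chr7:27169528-27169549 (minus strand). The sequence of miR-196a-5p occurs in HOXB at chr17:48632532-48632553 (minus strand) and in HOXC at chr12:53991762-53991783 (plus strand). That of miR-10a-5p lies in HOXB at chr17:48579904-48579926 (minus strand).
hsa-miR-196b-5p: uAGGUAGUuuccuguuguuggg
hsa-miR-196a-5p: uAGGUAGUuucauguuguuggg
hsa-miR-10a-5p: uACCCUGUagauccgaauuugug
Both miR-196 forms share the seed AGGUAGU, and the miR-196 family is known to target HOXB8. MIR10B lies in HOXD and is known for promoting invasion of breast cancer cells by repressing HOXD10.

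The H3K9ac lists held between 59724 peaks in untreated replicate 2 and 120630 in untreated replicate 1, and no source used here gives read depths. The untreated lists were the less alike: within the HOX windows the bases they shared, as a part of the bases either covered (the Jaccard index), were 0.18, against 0.584 for the treated lists (genome 0.231 and 0.562). Untreated replicate 1 held many peaks at its narrowest width of 238 bp, including 21 of its 67 HOX peaks, 31.3%, beside 44.3% of all its peaks. Values that rest on an untreated library are therefore given for each library. The p-values between conditions rest on these libraries, whose titles number them as replicates 1 and 2. With 2 libraries against 2, an exact permutation p ranks the 3 possible splits and does not measure a spread. Comparisons of a window with its flanks, and of cluster with cluster, take untreated and treated libraries together. Their SD thus includes any difference between conditions.

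H3K9ac was denser in the HOXA, HOXC and HOXD windows than in the DNA beside them, in each of the 4 libraries, while HOXB lay above its own flanks in 2 of 4. The unit is the share of bases under called peaks. The HOXA window was covered to 4.98% and 1.40% in untreated replicates 1 and 2 and to 3.90% and 2.28% in treated replicates 1 and 2, and its flanks to 0.992%, 0.152%, 0.873% and 0.415%. The HOXC window had 4.77%, 0.735%, 5.36% and 3.57%, beside flanks of 1.46%, 0.270%, 1.82% and 0.674%. The HOXD window had 5.37%, 3.07%, 7.94% and 6.75%, beside flanks of 1.36%, 0.692%, 1.23% and 0.995%. In all 3 clusters each library had more H3K9ac in the window than in the flanks, and untreated replicate 2 was the lowest of the 4 in each window.

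The HOXB window was covered to 3.99%, 1.64%, 3.99% and 3.26%, and its flanks to 3.18%, 1.68%, 4.50% and 2.75% in the same order. The HOXB flanks were the most covered of the 4 clusters in every library, and the window lay above them in untreated replicate 1 and treated replicate 2 and below them in the others. The difference of window minus flank averaged 2.53 ± 1.22 percentage points for HOXA, 2.55 ± 1.42 for HOXC and 4.71 ± 1.92 for HOXD (SD, n = 4 libraries; exact two-sided sign-flip permutation p = 0.13 each, the smallest that 4 libraries allow). For HOXB it was 0.190 ± 0.587 and positive in 2 of 4 libraries (SD, n = 4; exact sign-flip permutation p = 0.75). Without untreated replicate 1 the HOXB difference was −0.0158.

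**Figure D1:**
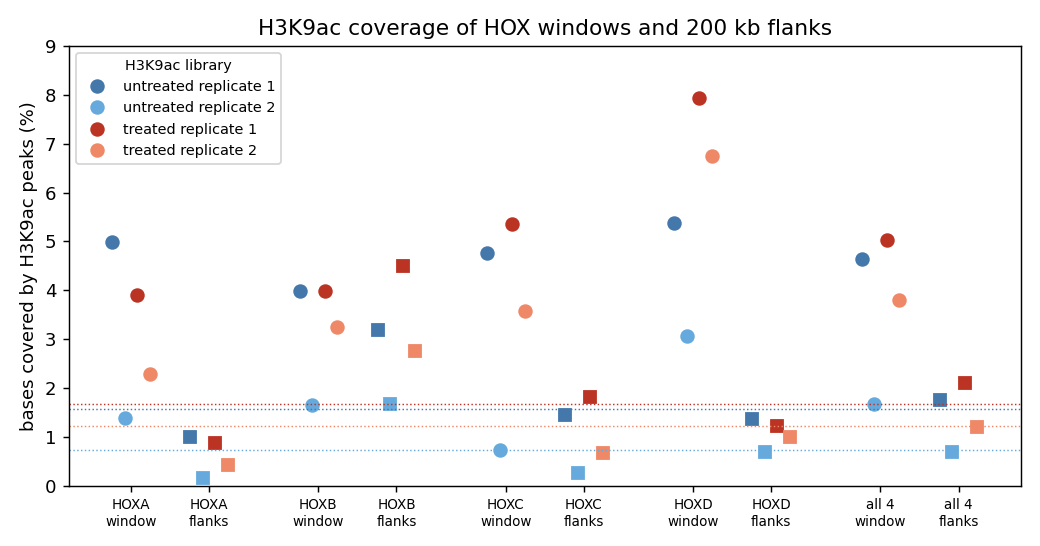
Share of bases under H3K9ac peaks (%) in each HOX window (circles) and its 200 kb flanks (squares), 1 point per library; the dotted lines give each library's share of the genome. HOXA, HOXC and HOXD windows sit above their flanks in all 4 libraries, HOXB does not, and the HOXD window is highest in treated replicate 1 at 7.94%.

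HOXD was the most covered cluster in each library. HOXA minus HOXD was −2.65 ± 1.94 percentage points, HOXB minus HOXD −2.57 ± 1.35 and HOXC minus HOXD −2.18 ± 1.10, with HOXD higher in 4 of 4 libraries each time (SD, n = 4; exact sign-flip permutation p = 0.13, adjusted over 6 pairs 0.25). By the number of peaks per 100 kb the order was not kept throughout: HOXB minus HOXD was −0.733 and HOXC minus HOXD −0.0261, while HOXA minus HOXD was 0.251 (exact sign-flip permutation p = 0.375, 1 and 0.875). HOXA, HOXB and HOXC could not be ordered beyond their spread: HOXA minus HOXB was −0.08 ± 0.814, HOXA minus HOXC −0.47 ± 1.07 and HOXB minus HOXC −0.39 ± 0.967 percentage points (SD, n = 4; exact permutation p adjusted 0.75, 0.6 and 0.6). HOXC had the widest spread relative to its level, from 0.735% to 5.36%.

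Between conditions, with all deposited peaks, HOXD was the 1 window of the 4 in which the treated libraries did not overlap with the untreated ones. With fewer peaks of each list other windows separated as well. Its covered share averaged 4.22% ± 1.63 without and 7.34% ± 0.845 with DETA/NO, a difference of 3.12 percentage points (SD, n = 2; exact permutation p = 0.333, the smallest 2 libraries against 2 allow). As background, of the 27265 bins of 100 kb with peaks, 21% had treated libraries both above the untreated ones and 30.1% had them both below. Those bins were sparsely covered, with medians of 1.09% and 0.35% in untreated and 0.148% and 0.202% in treated replicates 1 and 2. They are thus an unlike background for the HOXD window. Of the reproducible regions merged over both conditions, 85.8% had both treated libraries above both untreated ones in covered bases. The HOXD difference was 1.97 to 4.27 points when each library was left out in turn. Divided by each library's share of the genome, HOXD was covered 3.44 and 4.18 times as densely as the genome in untreated replicates 1 and 2 and 4.72 and 5.52 times in treated ones, again with no overlap. The HOXD flanks averaged 1.03% ± 0.475 and 1.11% ± 0.167, with groups that overlapped (SD, n = 2; exact permutation p = 1).

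In the other clusters the groups overlapped when all peaks were used. HOXA averaged 3.19% ± 2.54 without and 3.09% ± 1.15 with DETA/NO (SD, n = 2; exact permutation p = 1), a difference of −0.10 points. HOXB averaged 2.82% ± 1.66 and 3.62% ± 0.515 (SD, n = 2; exact permutation p = 1). HOXC averaged 2.75% ± 2.85 and 4.47% ± 1.26 (SD, n = 2; exact permutation p = 0.667). All 4 windows together were covered to 4.65% and 1.68% in untreated replicates 1 and 2 and to 5.04% and 3.79% in treated replicates 1 and 2, a mean difference of 1.25 points (exact permutation p = 0.667). Divided by each library's share of the genome, the 4 windows together averaged 2.63 ± 0.494 times the genome in untreated and 3.05 ± 0.0799 times in treated cells, with no overlap (SD, n = 2; exact permutation p = 0.333). Untreated replicate 2 decided the signs of the undivided differences for the 4 windows, HOXB and HOXC. Without it they were −0.233 for the 4 windows, −0.367 for HOXB and −0.305 for HOXC. The HOXA difference stayed negative without it, at −1.89. That difference turned to 1.69 without untreated replicate 1 and to 0.709 without treated replicate 2.

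With the 20000 highest-scoring peaks of each list, the treated libraries lay above the untreated ones in all 4 windows. HOXC was then covered to 0.846% and 0% in untreated and 4.55% and 2.67% in treated replicates 1 and 2, a mean difference of 3.18 points. HOXB had 1.70% and 0.950% in untreated and 2.79% and 2.71% in treated replicates 1 and 2, a difference of 1.42. HOXA had 1.57% and 0.685% in untreated and 2.02% and 1.67% in treated ones, so that its difference turned from −0.10 to 0.719. HOXD had 3.31%, 1.84%, 7.10% and 6.15% in the same order, a difference of 4.05, and the 4 windows together differed by 2.16 points (exact permutation p = 0.333 for each of the 5). Separation of this kind was common with those peaks, at 64.5% of the 12701 bins of 100 kb that held any. With an equal number of peaks in each list, HOXB (1.64 points), HOXD (3.62) and the 4 windows together (1.95) separated, and HOXA and HOXC overlapped, beside 31.9% of bins separating.

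The authors' reproducible sets, made from both libraries of a condition, held more HOX regions after treatment. The untreated set had 4 regions in HOXB, 1 in HOXD and 0 in HOXA and HOXC, and the treated set had 2 in HOXA, 3 in HOXB, 4 in HOXC and 4 in HOXD. They covered 0.603% of the windows in untreated and 3.85% in treated cells, beside 0.58% and 1.27% of the genome. Per 100 kb the windows held 0.855 and 2.22 regions, against 0.465 and 0.682 in the genome, and the flanks 0.562 and 0.812. There is 1 set per condition, so these counts have no replicate check. The untreated lists also shared fewer of their bases than the treated ones (Jaccard index above), and the part of this in the counts was not tested. Each of the 5 untreated regions overlapped a treated one, and 9 of the 13 treated regions overlapped no untreated one, beside a background of 45.1% of all treated regions. The untreated libraries nevertheless had peaks at these places. By the stricter rule of no peak in either untreated list, 0 of 13 were gained (background 15.1%), and by the mirror rule 0 of 5 were lost (background 4.4%). Without untreated replicate 1, the one untreated library with peaks at the last HOXC region, the count gained was 1 (background 27.8%).

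**Figure D2:**
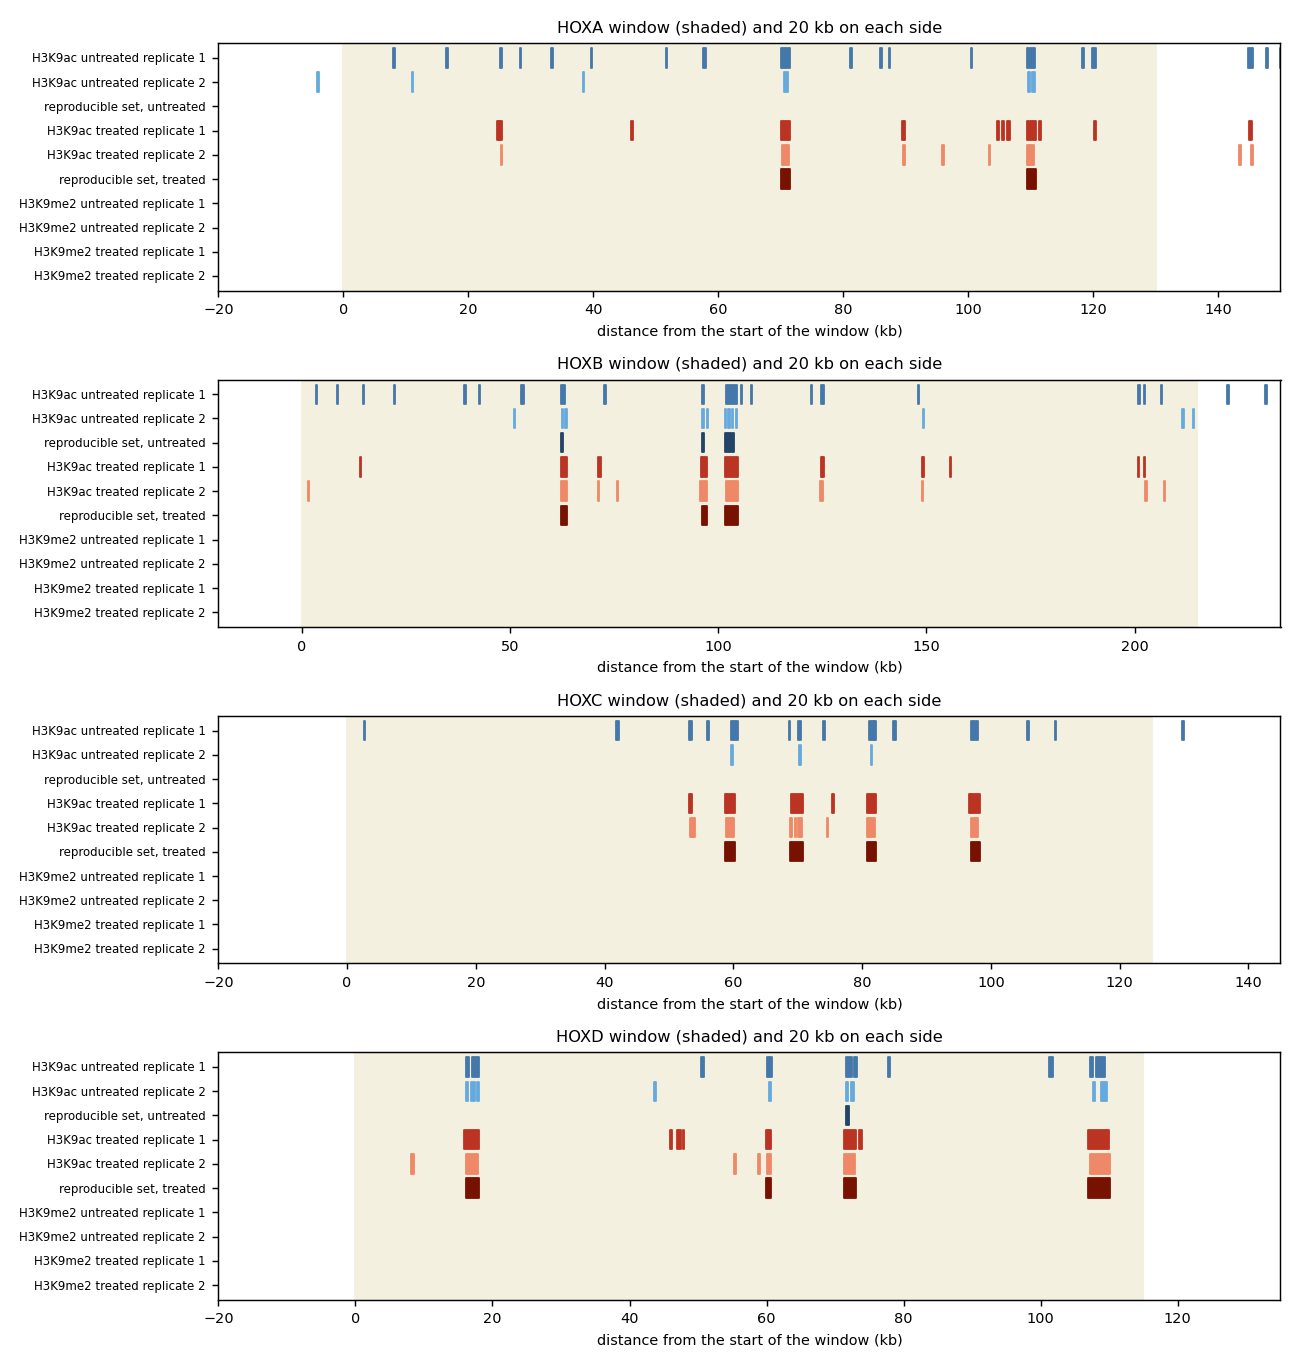
Called intervals in the 4 HOX windows (shaded) and 20 kb on each side, with distance from the window start in kb on the x axis and 1 row per list: H3K9ac libraries, reproducible sets and H3K9me2 libraries. The 13 treated reproducible regions coincide with H3K9ac peaks in every library except at the last HOXC region, where untreated replicate 2 has none, and the H3K9me2 rows are empty.

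Merging both sets gave 13 HOX regions, numbered here by position within each cluster, 4 of them with a region of both sets (background 51.9%) and 9 with a treated region only. They were chosen by calls in the same libraries, so counts over them are a description, read beside the same count over all regions. A peak lay in 12 of the 13 in all 4 libraries.

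All 3 HOXB regions had untreated reproducible calls, as 1 of the HOXD regions did. HOXB region 3, chr17:46701674-46704718, was 3045 bp wide and had 2033 and 1498 bp under peaks in untreated replicates 1 and 2 and 3030 and 2746 bp in treated replicates 1 and 2. It consisted of 4 peaks in each untreated library and 1 peak in each treated library. Its top peak stood in the best-scoring 4.89% and 8.90% of the treated lists, the highest place of any HOX region there, and in the best 7.79% and 17.5% of the untreated ones. HOXB region 2, chr17:46696000-46697305, had 483 and 310 bp in untreated and 1154 and 1214 bp in treated replicates 1 and 2. HOXB region 1, chr17:46662170-46663706, had 763 and 533 bp in untreated and 1537 and 1172 bp in treated replicates 1 and 2. In all 3 HOXB regions the treated libraries lay above the untreated ones.

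The HOXD regions included the widest of all. HOXD region 4, chr2:177051911-177055121, was 3211 bp wide, at the end of the window where RefSeq order places HOXD1. It had 1791 and 1194 bp in untreated and 3128 and 2989 bp in treated replicates 1 and 2, as 2 peaks in each untreated library and 1 in each treated one. HOXD region 3, chr2:177016252-177018056, had 1004 and 810 bp in untreated and 1805 and 1643 bp in treated replicates 1 and 2, and was the HOXD region with an untreated reproducible call, of 460 bp. HOXD region 1, chr2:176961071-176963082, toward the HOXD13 end, had 1348 and 1113 bp in untreated and 2012 and 1811 bp in treated replicates 1 and 2. HOXD region 2, chr2:177004983-177005693, was the narrowest at 711 bp and had 594 and 243 bp in untreated and 711 and 625 bp in treated ones. The groups did not overlap in any of these 4 regions.

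The 4 HOXC regions had untreated means between 364.5 and 534.0 bp. HOXC region 1, chr12:54388728-54390224, had 545 and 403 bp in untreated and 1374 and 1276 bp in treated replicates 1 and 2. HOXC region 2, chr12:54398823-54400773, had 388 and 341 bp in untreated and 1846 and 849 bp in treated ones, the largest ratio of means among the 13, 3.70. HOXC region 3, chr12:54410787-54412104, had 893 and 175 bp in untreated and 1318 and 864 bp in treated ones, so treated replicate 2 lay below untreated replicate 1. HOXC region 4, chr12:54426904-54428240, had 850 and 0 bp in untreated and 1337 and 976 bp in treated replicates 1 and 2. The peaks of HOXC ranked low in untreated replicate 2, where the top peaks of regions 1, 2 and 3 stood at 33.3%, 49.5% and 74.0% of the list.

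The HOXA regions had the smallest ratios of treated over untreated means among the 13. HOXA region 1, chr7:27200091-27201527, had 1277 and 698 bp in untreated and 1437 and 1069 bp in treated replicates 1 and 2, with groups that overlapped and a ratio of means of 1.27. HOXA region 2, chr7:27239465-27240816, had 1054 and 659 bp in untreated and 1192 and 1101 bp in treated replicates 1 and 2, a ratio of 1.34. Neither had an untreated reproducible call.

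**Figure D3:**
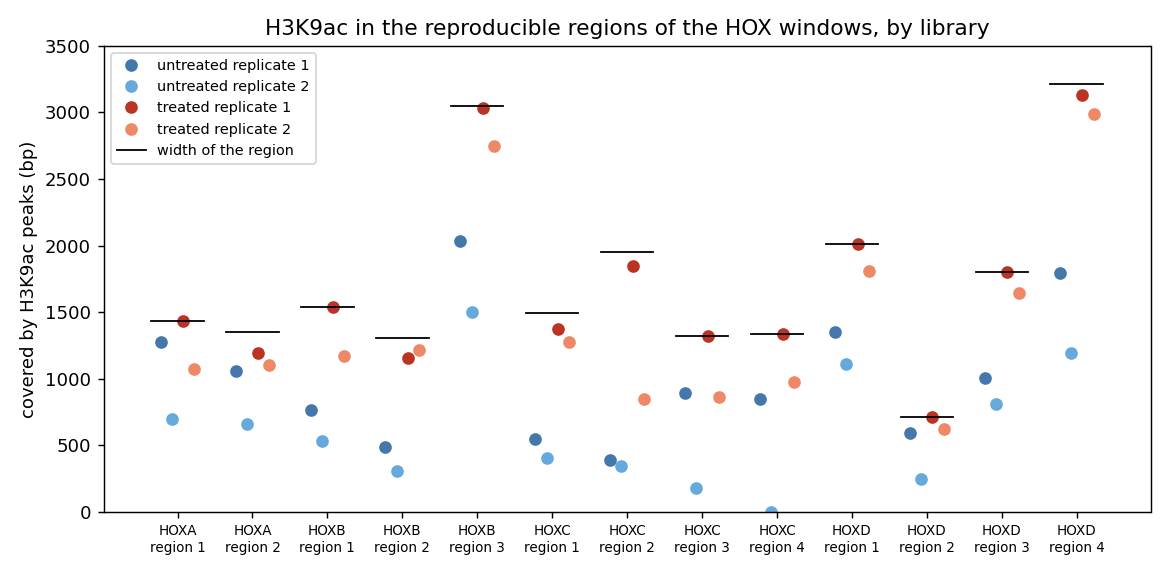
Bases under H3K9ac peaks (bp) in each of the 13 HOX reproducible regions, 1 point per library, with the width of the region as a horizontal line. In 11 of the 13 both treated libraries lie above both untreated ones; HOXA region 1 and HOXC region 3 are the exceptions.

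All 13 HOX regions had a higher mean in treated cells, and in 11 the treated libraries lay above the untreated ones. Over all 21945 merged regions of the genome the same held for 94.8% by a positive limma difference and for 85.8% by non-overlap, so the HOX counts were close to the background. Both treated libraries lay below the untreated ones in 0 HOX regions and in 4.05% of all. The median ratio of treated over untreated bases was 2.04 in the 13 HOX regions and 1.82 in all. limma, fitted to the arcsine of the square root of the covered share, gave a median difference of 0.59 in the HOX regions and 0.58 in all. With quantile normalization, which removes that general shift, the median difference was 0.00 in all regions and −0.02 in the HOX regions, of which 6 of 13 were positive.

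The single HOX region past the threshold was HOXD region 3, with a difference of 0.63 ± 0.23 on the arcsine scale (SE). It was higher in both treated libraries, and limma's adjusted p, by Benjamini-Hochberg over all 21945 regions, was 0.0297. The bounds of this region were those of the treated reproducible call, 1805 bp wide, beside an untreated call of 460 bp. Its share was thus measured over a width set by the treated libraries, and the p-value is a description. limma called 0 HOX regions lower. Of all regions it called 24.9% higher and 2.97% lower, and without adjustment 7 of 13 HOX regions and 53.3% of all had p under 0.05 in the higher direction. The next HOX region was HOXD region 1 (adjusted p = 0.0546), followed by HOXD region 4 (0.0575), HOXD region 2 (0.0605) and HOXB region 3 (0.0631). The call at HOXD region 3 was lost without any 1 of the 4 libraries, when the lowest limma adjusted p among the 13 lay between 0.0574 and 0.371. Without untreated replicate 1 or 2 or treated replicate 1 or 2, limma called 1.25%, 3.75%, 14.6% and 14.7% of all regions higher. The call was also lost with quantile normalization, when the lowest limma adjusted p of the HOX regions was 0.804, and with regions of both sets only, when it was 0.0826. With the untransformed share limma called 7 of 13 HOX regions and 49.4% of all. In the fits with a library left out, the condition left with 1 library was assumed to vary like the other.

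The covered bases of each window were then split into those inside the 13 regions and those elsewhere. Inside the 13 regions peaks covered 13023 and 7977 bp in untreated and 21881 and 18335 bp in treated replicates 1 and 2, means of 10500 ± 3568 and 20110 ± 2507 bp (SD, n = 2; exact permutation p = 0.333), with no overlap. Elsewhere in the windows they covered 14173 and 1826 bp in untreated and 7586 and 3859 bp in treated replicates 1 and 2, with the treated libraries between the untreated ones (exact permutation p = 1). The regions held 47.9% and 81.4% of the HOX bases under peaks in untreated and 74.3% and 82.6% in treated replicates 1 and 2. Over the genome, the corresponding shares within merged regions were 43.9% and 69.8%, and 74.0% and 83.0%. Because the regions were chosen mostly by treated calls, the inside values are a description.

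**Figure D4:**
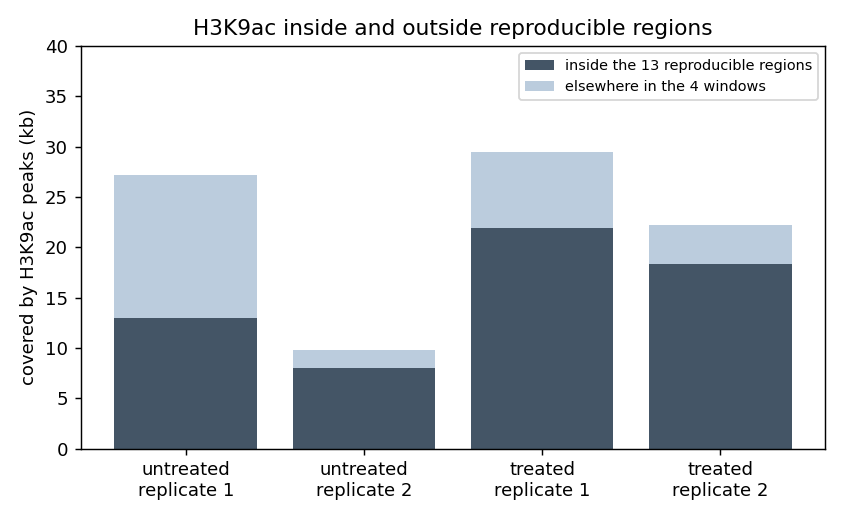
Bases under H3K9ac peaks (kb) in the 4 HOX windows of each library, split into those inside the 13 reproducible regions (dark) and elsewhere (light). The dark part is larger in both treated libraries, at 21881 and 18335 bp, than in the untreated ones, and the light part is largest in untreated replicate 1.

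The reach of the peaks around the untreated calls was compared as well, since those regions were chosen without the treated lists. In the 5 kb around each of the 5 untreated reproducible regions of HOXB and HOXD, both treated libraries covered more bases than both untreated ones, in 5 of 5. Of the 4 HOXB ones, 2 lie next to each other under 1 treated peak, so they are 1 place counted a second time. The background for this count was 84.1% of all untreated regions. At the HOXD one the bases were 1157 and 810 bp in untreated and 2246 and 1643 bp in treated replicates 1 and 2. At the first HOXB one they were 763, 533, 1537 and 1172 bp in the same order.

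More of the HOX peaks were wide in the treated lists. Of 67 and 29 peaks in untreated replicates 1 and 2, 2 and 0 were wider than 1000 bp, and of 44 and 38 peaks in treated replicates 1 and 2, 11 and 8 were. As shares these were 2.99%, 0%, 25.0% and 21.1%, beside 6.35%, 6.81%, 18.8% and 17.1% of all peaks of the same lists. Of the 13 HOX regions, 11 held a single peak in treated replicate 1 and 9 in treated replicate 2, beside 89.1% and 64.4% of all merged regions. At least 2 peaks lay in 10 and 6 of the 13 HOX regions in untreated replicates 1 and 2, beside 29.4% and 34.3% of all. A single peak lay in 3 and 6 of them, beside 52.6% and 39.2% of all. Shares of all include regions without a peak in that library, whereas 13 and 12 of the 13 HOX regions had one. The shares are thus not on a like base. The narrowest width that a list allowed differed too, at 238 and 175 bp in untreated and 99 and 114 bp in treated replicates 1 and 2. Its part in the result was not tested.

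Most places with H3K9ac in the windows were called in 1 library. Joined over libraries, the peaks formed 96 intervals, of which 12 were called in all 4 libraries, 12.5%, beside 6.6% of the intervals of the genome. HOXD had the highest such share, 4 of 16, then HOXC with 3 of 17, HOXB with 3 of 35 and HOXA with 2 of 28. Untreated replicate 1 alone gave 35 intervals, treated replicate 1 alone 18, treated replicate 2 alone 13 and untreated replicate 2 alone 7. As shares these were 36.5%, 18.8%, 13.5% and 7.29%, beside 39.4%, 19.2%, 11.6% and 13.5% of the intervals of the genome. Both treated and no untreated library had a peak at 3 intervals, 3.12%, beside 4.79% of the genome, and the reverse pattern was found at 0. The 3 were chr7:27219571-27219880 in HOXA, and chr17:46671057-46671485 and chr17:46748905-46749104 in HOXB, each under 500 bp wide.

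H3K9ac was unevenly placed along each cluster. In HOXA the side of the window above its midpoint, toward HOXA13 in RefSeq order, held 63.5% and 74.7% of the bases under peaks in untreated and 85.8% and 96.1% in treated replicates 1 and 2. The first 70.1 kb of the HOXA window had no reproducible region and 2363, 459, 721 and 115 bp under peaks in the same order of libraries. In HOXB the side below the midpoint, toward HOXB1, held 71.2%, 78.7%, 77.6% and 81.1%, with HOXB regions 2 and 3 close to the midpoint, at 45.0% and 48.0% along the window. The first 62.2 kb of the HOXB window, at the HOXB1 end, had no reproducible region and 2076, 196, 179 and 114 bp under peaks. The last 110.0 kb, toward HOXB13, had none either and 2712, 752, 1917 and 1325 bp. In HOXC the side above the midpoint, toward HOXC4, HOXC5 and HOXC6, held 60.0%, 56.1%, 74.0% and 63.7%. In HOXD the side above the midpoint, toward HOXD1, held 71.7%, 63.6%, 66.6% and 69.2%. The side that held more was thus the same in every library of a cluster.

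H3K9me2 was absent from the called lists throughout the HOX clusters. In each of the 4 H3K9me2 libraries, 0 islands overlapped the HOXA, HOXB, HOXC or HOXD window, while islands covered 7.61% and 8.22% of the genome in untreated and 9.21% and 7.32% in treated replicates 1 and 2. As background, 34.2% of the 30946 bins of 100 kb had an island in any library and 14.3% in all 4. The chromosomes that carry the clusters differed from the genome. Islands covered 11.7% to 15.8% of the chromosome of HOXA in the 4 libraries. They covered 2.76% to 3.25% of that of HOXB, 1.86% to 3.74% of that of HOXC and 1.07% to 3.09% of that of HOXD. The genome is thus an unlike background for HOXB, HOXC and HOXD. Whether the absence was particular to the windows was not tested. The lists hold only islands that the authors called, so weaker H3K9me2 in the windows was not measured. No difference between conditions could be seen in windows that were at 0 in every library.

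Only 2 islands lay in the flanks, each in 1 library. Untreated replicate 1 had one below HOXB, chr17:46400501-46409000, of 8500 bp with an authors' score of 5.06, near the bottom of its list at 99.0%. Treated replicate 1 had one above HOXD, chr2:177217501-177242000, of 24500 bp with a score of 16.6, in the best-scoring 9.05% of its list. Their replicates had 0 islands in the same flanks. Mean H3K9me2 coverage of the flanks was 0.266% ± 0.376 without and 0.766% ± 1.08 with treatment (SD, n = 2; exact permutation p = 1).

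The distance from a HOX window to the nearest island differed widely between clusters. For HOXC it was between 16054.0 and 23092.5 kb in the 4 libraries, so that many megabases around the cluster held no called H3K9me2. Untreated replicate 1 alone had an island below the HOXC window, 16054.0 kb away. The other libraries had none below it on that chromosome, and their distances are to islands above. The chromosome that carries HOXC was itself sparsely covered, at 1.86% to 3.74%. For HOXA it was 1041.5 and 746.5 kb in untreated and 334.5 and 300.0 kb in treated replicates 1 and 2. For HOXD it was 442.0 and 534.5 kb in untreated and 157.5 and 208.5 kb in treated replicates 1 and 2. For HOXB it was 191.0, 2756.5, 1091.0 and 2776.0 kb in the same order. At HOXA and HOXD both treated libraries had an island nearer to the window than both untreated ones, which was noticed in the values and not tested. At HOXD this held above the window only. Below it the distances were 442.0 and 534.5 kb in untreated and 578.5 and 6853.5 kb in treated replicates 1 and 2. At HOXA it held below the window only. Above it they were 1041.5 and 746.5 kb in untreated and 995.5 and 982.5 kb in treated ones. No background was counted for such distances. Treated replicate 1 had more of chromosome 2, which carries HOXD, covered than the other libraries, 3.09% against 1.07% to 1.12%.

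**Figure D5:**
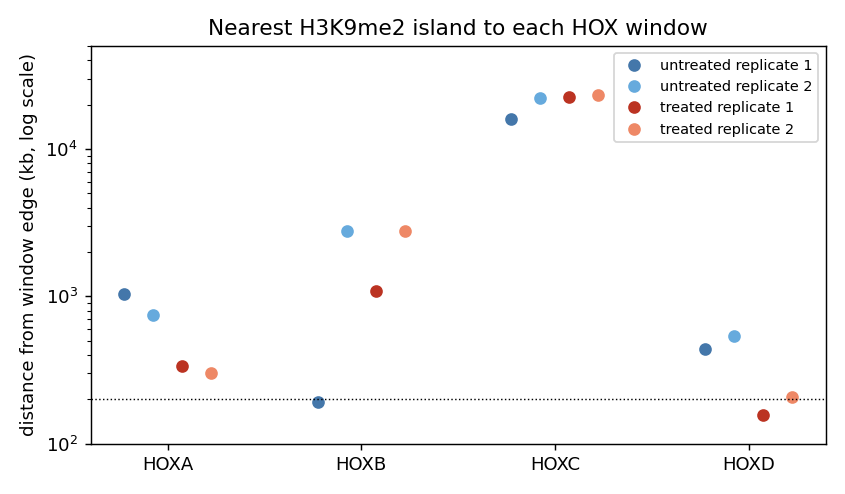
Distance from the edge of each HOX window to the nearest H3K9me2 island (kb, log scale), 1 point per library; the dotted line marks the 200 kb flank. HOXC points lie at 16054.0 kb or more, and at HOXA and HOXD the treated points lie below the untreated ones. Taken by side, this held only below the HOXA window and only above the HOXD window.

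The flanks of the 4 clusters held 9 untreated and 13 treated reproducible regions, which merged into 13, and 12 of these had both treated libraries above both untreated ones, beside 11 of 13 in the windows and 85.8% of all regions. limma called 3 of the 13 flank regions higher (adjusted p under 0.05), beside 1 of 13 HOX regions and 24.9% of all. The flanks of HOXB held 7 regions in each set, those of HOXC 0 in the untreated and 3 in the treated set, those of HOXA 0 and 1, and those of HOXD 2 and 2. Coverage of all flanks was 1.75% and 0.698% in untreated and 2.11% and 1.21% in treated replicates 1 and 2, with groups that overlapped (exact permutation p = 0.667). All 13 flank regions had a call of the treated set and 8 had one of the untreated set, so these counts are a description. The limma-called flank regions chr17:46894648-46895100 and chr12:54646420-54646921 had 0 bp under peaks in both untreated libraries. In windows and flanks alike the counts lay near the background, and the difference between window and flank regions was not tested.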

How the data were processed

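The samples were grouped by their titles into untreated and treated H3K9ac and H3K9me2 libraries. Per the submitters' processing notes, the build was hg19 and the tools included SICER, MACS2, Picard, BWA 0.7.5 and Trimmomatic 0.32. Their settings and roles, and the read depth, are not given in the sources used. The deposited lists give starts and ends of intervals and a column of scores, with no headers. The deposited H3K9ac scores, and the H3K9me2 scores of at least 5, are the authors' own and ranked intervals within a list. The score of the authors' 2 deposited reproducible sets was read as −log10 of an irreproducible discovery rate, since the lowest value, 1.301, is that of a rate of 0.05. A covered share moves with how much the authors called in a list. The island lists lie on a grid of 500 bp.

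Windows, members, lists and tests were chosen with earlier results of these data known. Covered bases were counted in Python 3.11.15 (pandas 2.3.3, numpy 2.4.6), with overlap of at least 1 bp. Condition means were compared by exact two-sided permutation of libraries, window with flank and cluster with cluster by exact sign flips within libraries (Benjamini-Hochberg over 6 pairs), and merged reproducible regions by limma 3.58.1 (R 4.3.3, trend on the mean), adjusted over all 21945. The steps were tested on simulated data. The HOX genes were named by cluster, and every reproducible region in a window was described. Planned checks at gene starts, of HOX partner and polycomb genes and of cell line markers were not run, as hg19 gene positions were not used here. RefSeq sequences were matched by symbol. Alternatives were peak number, flank length, window width, division by the genome share, overlap rules, limma settings, a replicate block and each library left out.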

Additional observations from a re-analysis of the deposited data

How the results depend on the processing

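Of 141 alternative values, 113 kept the direction or count of the main value, 16 reversed and 12 moved. Some of the 113 could not differ, so the tally is no measure of robustness. The replicate block leaves a mean difference of coverage as it is, and the fit without a filter covered the same 21945 regions. H3K9me2 was 0 in the windows of every library. Gained regions were judged from untreated lists alone and lost ones from treated lists, so omitting a library of the other condition changed nothing. Leaving out each library in turn, the difference of treated minus untreated H3K9ac coverage ranged from −0.233 to 2.74 percentage points for the 4 windows, −1.89 to 1.69 for HOXA, −0.367 to 1.98 for HOXB, −0.305 to 3.73 for HOXC and −0.0899 to 0.961 for the flanks; HOXD, at 1.97 to 4.27, kept its direction. The same ranges were −0.266 to 1.27 for H3K9me2 in the flanks and −0.0158 to 0.427 for HOXB window minus flank. Chosen after seeing the data, leaving out the HOXD window gave 0.796 points for the other clusters. The HOXA difference was 0.719 with the 20000 highest-scoring peaks and 0.888 with equal numbers of peaks, and H3K9me2 in flanks of 100 kb gave 0. By peaks per 100 kb HOXA exceeded HOXB by 0.984, HOXC by 0.277 and HOXD by 0.251, and HOXB exceeded HOXC by 0.0227 points with the 20000 highest-scoring peaks.

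The count of gained HOX regions was 4 when at least 50% of a region had to be shared (background 44.3%), 9 when absence was judged from the untreated reproducible set, and 0 to 1 with each library left out. limma called 0 HOX regions higher with quantile normalization, 0 with regions of both sets only, 7 with the untransformed share (49.4% of all) and 0 with each library left out. With the replicate number as a block it called 10 (74.1% of all), and with the crossed replicate block, added after seeing the data, 0 (14.6% of all). The deviations of untreated and treated replicate 1 from their condition means had a correlation of r = −0.113 across 21945 regions. With 2 libraries a condition, this cannot tell whether the replicate numbers pair the libraries. The block left the window differences as they were, with a smallest possible exact permutation p of 0.5. The cause of these shifts was not tested. With 2 libraries a condition no window difference could pass 0.05, and without read depths or signal tracks only called intervals could be compared.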
